A study of Mus musculus with 35 samples.

Results

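The 50 genes described here drive the cell cycle or brake it. They were listed by gene symbol according to their known roles. Measured levels were not part of the rule, though earlier results of these data were known when the list was made. Of the 50, 11 act in G1, 13 in the replication of DNA during S phase and 20 in mitosis, while 6 are known from arrest of the cycle or from its exit. All 50 were found among the 30723 gene symbols of the tables, and all 50 were among the 13934 genes tested.

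A dividing cell passes from G1 through S phase to mitosis. In G1, cyclin D with Cdk4 or Cdk6 and cyclin E with Cdk2 inactivate the retinoblastoma family of proteins, which frees E2F factors to switch on the genes of DNA replication. Cyclin A and cyclin B with Cdk1 then carry the cell into mitosis. Inhibitors of the INK4 and CIP/KIP families hold these kinases back. In the embryonic brain at midgestation, progenitors divide along the ventricle and their daughters leave the cycle to become neurons, whereas the mesenchyme of the face and of the limb bud is still largely dividing.

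RNA came from wild-type CD1 mouse embryos at embryonic day 11.5, in 35 libraries: 6 of dorsal brain (dB), 6 of ventral brain (vB), 6 of limb, 6 of the frontonasal prominence (FNP), 6 of the mandibular prominence (MNP) and 5 of the maxillary prominence (MXP). The labels call dB and vB neural tube. Here dB and vB are joined as neural tissue, and the prominences, the outgrowths that form the face, as facial tissue. Every library is a pool of 1 tissue dissected from several embryos, so cell types are mixed, and in such RNA fewer cells of a type and less RNA per cell cannot be told apart.

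Levels are in FPKM, fragments scaled to the length of a transcript and to the mapped fragments of its library, summed over the transcripts of a gene. Differences were fitted in limma on log2(FPKM + 1), on which changes of low genes come out too small. A gene passed at a Benjamini-Hochberg adjusted p under 0.05 over all 13934 tested genes, and was called at a fold change of at least 2 besides. The tables hold no read counts, so the depth behind single values is known only through a coverage column, in which 1 FPKM went with 2.70 to 5.51. In the 6 libraries numbered 1, between 19.1 and 39.2% of the summed FPKM fell on transcripts under 200 bases, against 0.65 to 10.3% elsewhere. Replicates 1 to 3 and replicates 4 to 6 came from separate sequencing runs, going by the run numbers the tables carry. Of the members, a single transcript of Cdk6 had a status of too little data, in the 6 libraries numbered 1.

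Markers of the cell types were checked against the tissue names. All 13 neural progenitor markers (most abundant Fabp7 and Msi1) were higher in neural tissue than in the face, while 10 of 12 mesenchyme markers (Twist1 and Col1a2) and 11 of 11 surface epithelium markers (Epcam and Krt5) were lower, with none the other way. Of 8 macrophage markers (Tyrobp and Fcer1g) 7 were higher in neural tissue, and of 7 muscle markers (Pax3 and Actc1) 1 was higher and 5 were lower. The 8 endothelial markers (Cldn5 and Cdh5) gave 1 higher and 2 lower, and the 8 tested erythroid genes (Hbb-y and Hba-x) gave none higher and 1 lower. The summed mesenchyme level ran from 258 to 464 FPKM in dB and from 8.04 to 429.8 FPKM in vB. Postmitotic neuron markers are given beside the cycle exit genes.

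In a fit by tissue alone, all cycle exit genes passed among the 6 tissues. G1 genes passed near the share of all tested genes (7 of 11 against 51.7%), and most genes of S phase and mitosis did not. In limma's F test over the tissue means, 18 of the 50 members passed, against 51.7% of all tested genes. With the sequencing run as a factor 26 passed, and 37 with the replicate number as a factor instead. G1 and cycle exit hold only 11 and 6 genes, so the 37 include most genes of S phase and mitosis. The statement on these 2 groups therefore holds for the fit by tissue alone. The 18 were all 6 cycle exit genes, 7 of 11 G1 genes, 2 of 13 S phase genes (Mcm4 and Mcm5) and 3 of 20 mitosis genes (Aurka, Bub1 and Cenpe). A range of at least 1 log2 unit between the highest and the lowest tissue mean was seen in 7 of the 18, against 21.1% of all tested genes: 3 cycle exit genes and 4 G1 genes. The median range was 1.29 log2 units over the cycle exit genes, 0.67 over G1, 0.39 over S phase and 0.31 over mitosis, and 0.46 over all tested genes.

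Between neural and facial tissue, 12 members were higher and 6 lower in neural tissue, against 26.8% of all tested genes higher and 26.8% lower. Past a fold of 2 were Btg2, Gadd45g and Rb1, all higher, which is 3 of 50 where 11.3% of all tested genes were called. With FPKM rescaled over transcripts of at least 200 bases, the counts were 13 higher and 10 lower. Between neural tissue and limb, 9 members were higher and 13 lower, against 24.3% and 20.6% of all tested genes. The same 3 genes and Cdkn2c were called there, all higher in neural tissue, 4 of 50 where 12.4% of all tested genes were called. Both comparisons share the 12 neural libraries. The plot of fold changes shows the 50 members side by side in both.

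**Figure D1:**
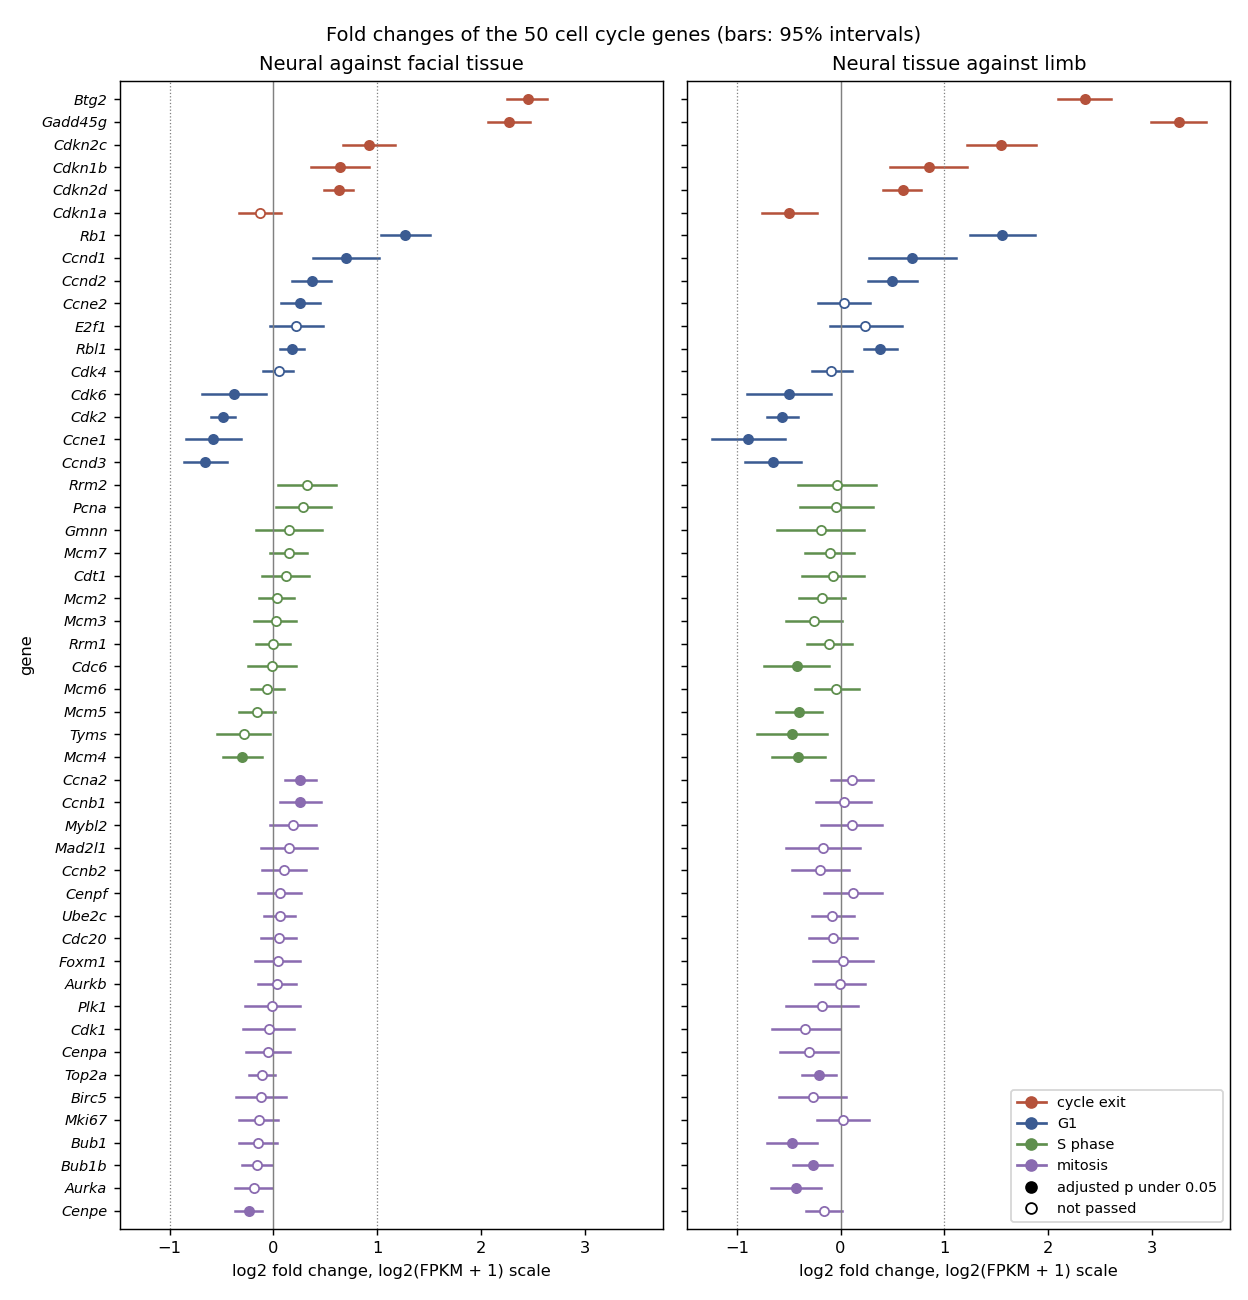
Log2 fold change of each of the 50 members on the log2(FPKM + 1) scale, neural against facial tissue on the left and neural tissue against limb on the right, with 95% intervals, filled where the adjusted p was under 0.05; dotted lines mark a fold of 2. Cycle exit genes reach 2.45 (Btg2) and 3.26 (Gadd45g), whereas all 33 genes of S phase and mitosis lie between −0.47 and 0.32.

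Btg2, an antiproliferative gene that is switched on in neural progenitors before their neurogenic division, had the largest difference of all members between neural and facial tissue. It lies on chromosome 1 from 134074865 to 134079155 of mm10. The lowest, median and highest of 6 libraries were 28.8, 39.0 and 45.3 FPKM in dB and 27.2, 41.1 and 45.1 FPKM in vB, against 3.36, 7.58 and 8.46 FPKM in limb, 8.58, 9.74 and 12.2 FPKM in FNP and 4.00, 5.12 and 5.40 FPKM in MNP. The 5 MXP libraries had 5.66, 4.30, 4.02, 5.09 and 4.06 FPKM. Every neural library lay above every library of the other tissues, and the lowest value of dB, of vB, of limb and of MNP was in each case that of replicate 4. Neural tissue averaged 38.5 ± 5.86 FPKM (SD, 12 libraries), limb 6.87 ± 1.95 FPKM (SD, 6 libraries) and facial tissue 6.69 ± 2.79 FPKM (SD, 17 libraries). The log2 fold change was 2.45 against facial tissue (SE 0.10, adjusted p = 1.4e-20 in limma) and 2.36 against limb (SE 0.13, adjusted p = 6.8e-17).

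Gadd45g, a stress-inducible growth arrest gene also known from differentiating neural cells, was the member with the largest difference from limb. It lies on chromosome 13 from 51846675 to 51848474. In dB the lowest, median and highest library had 50.7, 52.3 and 64.4 FPKM and in vB 33.9, 52.1 and 77.2 FPKM, against 3.62, 4.48 and 5.96 FPKM in limb, 13.8, 17.1 and 19.8 FPKM in FNP and 5.89, 7.02 and 9.66 FPKM in MNP. MXP had 8.48, 8.61, 7.07, 7.58 and 9.78 FPKM. Again no neural library overlapped with another tissue, and FNP stood apart from MNP and MXP. Against facial tissue the log2 fold change was 2.27 (SE 0.10, adjusted p = 2.3e-19), and against limb it was 3.26 (SE 0.13, adjusted p = 3e-20).

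The INK4 genes Cdkn2c and Cdkn2d, which encode inhibitors of Cdk4 and Cdk6, were higher in neural tissue too. Cdkn2c had 6.92 ± 2.02 FPKM (SD, 12 libraries) in neural tissue, 1.65 ± 0.506 FPKM (SD, 6 libraries) in limb and 3.08 ± 0.636 FPKM (SD, 17 libraries) in facial tissue. Its log2 fold change was 0.92 against facial tissue (SE 0.12, adjusted p = 8.5e-08), where the libraries overlapped, and 1.55 against limb (SE 0.16, adjusted p = 8.4e-10), where they did not. In replicate 4 it had 4.04 FPKM in dB, 2.97 FPKM in vB, 0.929 FPKM in limb and 1.35 FPKM in MNP, the lowest value of each of these tissues. Cdkn2d had 25.6 ± 4.02 FPKM (SD, 12 libraries) in neural tissue, 16.5 ± 1.64 FPKM (SD, 6 libraries) in limb and 16.1 ± 1.74 FPKM (SD, 17 libraries) in facial tissue, and its lowest neural library (19.5 FPKM, dB replicate 5) lay above the highest facial one (19.0 FPKM, FNP replicate 3). The log2 fold change was 0.63 against facial tissue (SE 0.07, adjusted p = 1.1e-09) and 0.60 against limb (SE 0.09, adjusted p = 1.3e-06).

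The CIP/KIP genes, which encode inhibitors of cyclin E and cyclin A kinases, did not move together. Cdkn1b, which encodes the inhibitor p27, had 48.6 ± 14.8 FPKM (SD, 12 libraries) in neural tissue, 25.5 ± 5.44 FPKM (SD, 6 libraries) in limb and 29.6 ± 4.85 FPKM (SD, 17 libraries) in facial tissue (log2 fold change of 0.64 with SE 0.14 and adjusted p = 1.8e-04 against facial tissue). Among its vB libraries the lowest was 16.6 FPKM in replicate 4 and the highest 68.6 FPKM in replicate 2. Cdkn1a, the inhibitor gene that p53 induces, had 5.64 ± 1.57 FPKM (SD, 12 libraries) in neural tissue and 6.28 ± 1.69 FPKM (SD, 17 libraries) in facial tissue, and did not pass between them (log2 fold change −0.13, 95% interval −0.33 to 0.07). Against limb, with 8.20 ± 1.42 FPKM (SD, 6 libraries), Cdkn1a was lower in neural tissue (log2 fold change of −0.50 with SE 0.13 and adjusted p = 0.0021), though not within replicates 1 to 3 (−0.38). Of the 6 cycle exit genes it was the one with its highest tissue mean in limb.

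Against facial tissue 5 of the 6 cycle exit genes were higher in neural tissue, without any lower one, with a median log2 fold change of 0.78, against −0.02 over all tested genes. Against limb 5 were higher and 1 lower, with a median of 1.20, against −0.01 over all tested genes. The shares of all tested genes were 26.8% higher and 26.8% lower than in facial tissue, and 24.3% and 20.6% than in limb. Within replicates 1 to 3 and within replicates 4 to 6, the log2 fold change of Btg2 against facial tissue was 2.60 and 2.29, that of Gadd45g 2.32 and 2.20, that of Cdkn2c 1.09 and 0.73, and that of Cdkn2d 0.65 and 0.60. For Cdkn1b it was 0.88 and 0.39, and Cdkn1b did not pass within replicates 4 to 6, where its difference from limb (0.72) did not pass either.

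Markers of postmitotic neurons and of neural progenitors moved with these genes. Of 22 listed neuron markers 21 were tested, and all 21 were higher in neural tissue than in facial tissue and than in limb. Their summed level was 711 to 2152 FPKM in neural libraries, 33.8 to 65.1 FPKM in limb and 53.0 to 211 FPKM in facial libraries, with Tubb3 and Stmn2 as the most abundant. In facial tissue the means of Neurod2 and Neurod6 were under 0.1 FPKM, and in limb those of Gad2, Neurod1, Neurod2, Neurod6 and Slc17a6. The part of neurons in the levels of the cycle exit genes was not tested.

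**Figure D2:**
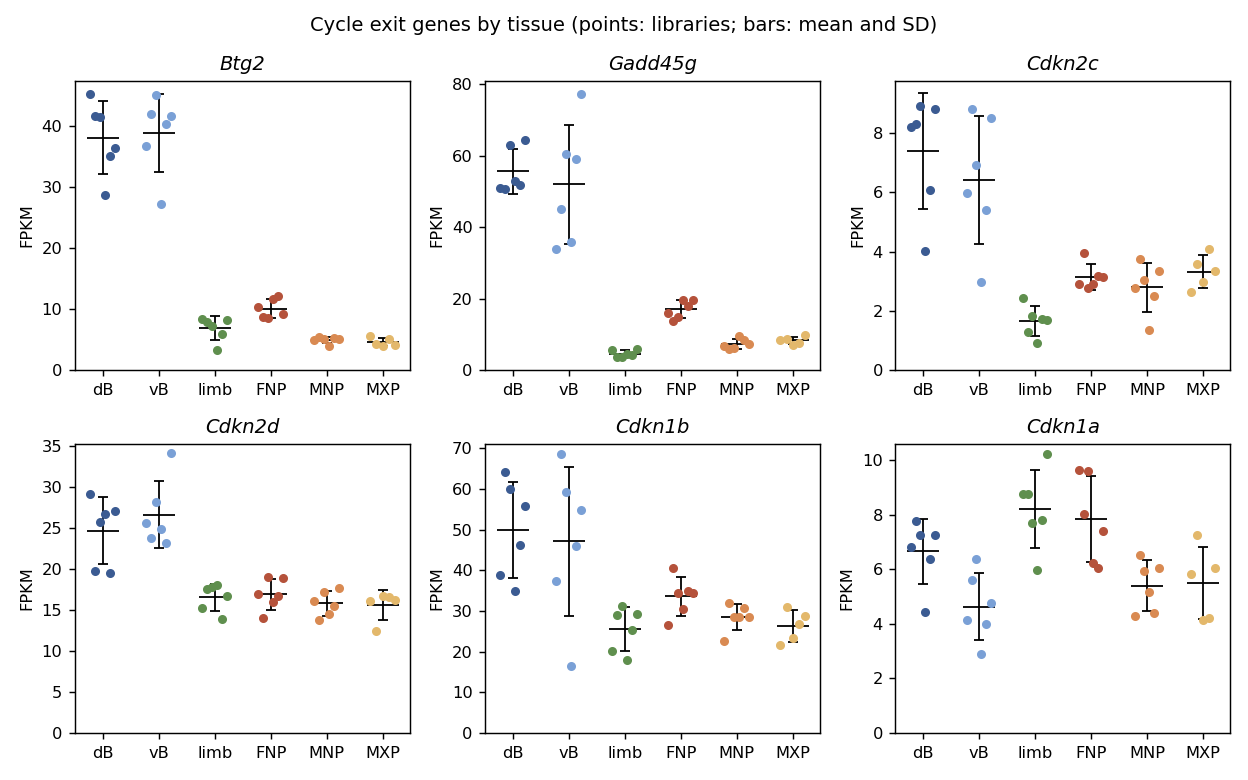
FPKM of the 6 cycle exit genes in every library by tissue (points), with the tissue mean and SD (black). Btg2 and Gadd45g are at 27.2 FPKM or more in every dB and vB library and at 19.8 FPKM or less elsewhere, and Cdkn1a has its highest mean, 8.20 FPKM, in limb.

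The starts of Btg2 and Gadd45g are printed because these exit genes were called against both facial tissue and limb. Each run holds 250 bases before and 50 bases after a RefSeq start (GRCm38.p6), read along the gene, and capitals mark CCAAT boxes (CCAAT, or ATTGG on the opposite strand), the only one of the motifs searched that was found in them. The Btg2 window is chr1:134079106-134079405 on the minus strand, with boxes 173 and 34 bases before the start, and the Gadd45g window chr13:51846425-51846724 on the plus strand, with a box 78 bases before it.
Btg2: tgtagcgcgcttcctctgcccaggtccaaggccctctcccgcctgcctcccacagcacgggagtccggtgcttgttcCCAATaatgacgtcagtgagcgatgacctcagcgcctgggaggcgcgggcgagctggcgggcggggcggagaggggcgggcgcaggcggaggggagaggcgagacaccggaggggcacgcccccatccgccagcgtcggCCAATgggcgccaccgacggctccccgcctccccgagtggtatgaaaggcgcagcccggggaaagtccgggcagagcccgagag
Gadd45g: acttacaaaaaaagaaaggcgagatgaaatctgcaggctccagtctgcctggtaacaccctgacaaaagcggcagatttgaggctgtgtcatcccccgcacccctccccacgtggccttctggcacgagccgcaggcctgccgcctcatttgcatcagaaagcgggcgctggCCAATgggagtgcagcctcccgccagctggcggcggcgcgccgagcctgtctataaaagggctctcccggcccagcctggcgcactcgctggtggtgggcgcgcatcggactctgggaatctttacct

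Among the G1 genes, Rb1 stood with the exit genes. It encodes the retinoblastoma protein, which holds E2F factors back, and lies on chromosome 14 from 73195502 to 73325791. In dB its lowest, median and highest library had 10.9, 15.1 and 21.04 FPKM and in vB 10.2, 15.7 and 21.6 FPKM, against 2.41, 4.67 and 5.95 FPKM in limb, 5.93, 6.71 and 8.58 FPKM in FNP and 3.35, 4.40 and 5.96 FPKM in MNP. MXP had 4.64, 7.63, 5.82, 4.41 and 6.37 FPKM. The neural libraries did not overlap with any other tissue. The log2 fold change was 1.27 against facial tissue (SE 0.12, adjusted p = 2.5e-11) and 1.56 against limb (SE 0.15, adjusted p = 2.1e-10), and within replicates 1 to 3 and 4 to 6 it was 1.28 and 1.27 against facial tissue. Its relative Rbl1 was also higher in neural tissue, with 15.7 ± 1.72 FPKM (SD, 12 libraries), than in facial tissue, with 13.8 ± 1.10 FPKM (SD, 17 libraries), by 0.18 on the log2 scale (SE 0.06, adjusted p = 0.0093), though not past the threshold rescaled over transcripts of at least 200 bases (0.16) or within replicates 4 to 6 (0.12). E2f1, which encodes an E2F activator, did not pass (log2 fold change 0.22, 95% interval −0.03 to 0.48).

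The 3 D cyclins, which receive growth signals in G1, differed in opposite directions. Ccnd1 had its lowest, median and highest library at 91.6, 125.9 and 140.4 FPKM in dB and at 42.3, 157 and 209 FPKM in vB, against 49.6, 83.3 and 92.8 FPKM in limb, 52.2, 61.6 and 97.3 FPKM in FNP and 103, 114 and 136 FPKM in MNP. MXP had 65.4, 57.9, 43.3, 79.5 and 56.1 FPKM. MNP lay within the range of the brain libraries, and the 42.3 FPKM of vB replicate 4 lay below every library of every other tissue. Ccnd1 was higher in neural tissue than in the face by 0.70 on the log2 scale (SE 0.16, adjusted p = 2.9e-04) and than in limb by 0.69 (SE 0.21, adjusted p = 0.0062). Within replicates 1 to 3 the difference from facial tissue was 1.12, within replicates 4 to 6 it was 0.26 and did not pass, and without vB replicate 4 it was 0.86. Against limb it was 0.96 within replicates 1 to 3, and 0.43 and not past the threshold within replicates 4 to 6.

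Ccnd2 was higher in neural tissue as well, with 126 ± 28.7 FPKM (SD, 12 libraries), than in facial tissue, with 96.1 ± 15.9 FPKM (SD, 17 libraries; log2 fold change of 0.37 with SE 0.09 and adjusted p = 8.9e-04), and than in limb (0.50, SE 0.12, adjusted p = 8.1e-04). Ccnd3 went the other way. It had 78.7 ± 24.0 FPKM (SD, 12 libraries) in neural tissue, 119 ± 11.4 FPKM (SD, 6 libraries) in limb and 120.1 ± 14.8 FPKM (SD, 17 libraries) in facial tissue, and was lower in neural tissue, with a log2 fold change of −0.66 against facial tissue (SE 0.10, adjusted p = 1.3e-06) and −0.65 against limb (SE 0.13, adjusted p = 1.4e-04). Its vB libraries ran from 42.6 FPKM in replicate 6 to 101.6 FPKM in replicate 5. These 2 libraries also had the lowest and the highest summed mesenchyme level of vB, 8.04 and 429.8 FPKM. Out of that order, replicate 4 had 62.9 FPKM of Ccnd3 with a mesenchyme sum of 313 FPKM, and replicate 1 had 95.6 and 237 FPKM. The part of mesenchyme in the Ccnd3 difference was not tested.

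The kinases and the E cyclins, which carry G1 into S phase, also split. Cdk2, the partner of cyclin E, had 37.4 ± 5.52 FPKM (SD, 12 libraries) in neural tissue, 55.1 ± 2.21 FPKM (SD, 6 libraries) in limb and 52.5 ± 4.55 FPKM (SD, 17 libraries) in facial tissue. Its highest neural library, at 44.6 FPKM, lay below the lowest facial one, at 46.0 FPKM (log2 fold change of −0.49 with SE 0.06 and adjusted p = 4.9e-09). Ccne1 was lower in neural tissue, with 22.2 ± 6.50 FPKM (SD, 12 libraries), than in facial tissue, with 33.3 ± 8.30 FPKM (SD, 17 libraries; log2 fold change of −0.58 with SE 0.13 and adjusted p = 3.1e-04), and than in limb, with 41.2 ± 9.73 FPKM (SD, 6 libraries; −0.89, SE 0.17, adjusted p = 6.2e-05). Ccne2 differed from facial tissue by 0.26 (SE 0.09, adjusted p = 0.0164), higher in neural tissue, and did not pass within replicates 1 to 3 (0.17) or 4 to 6 (0.36). Cdk4 was the most abundant member in every tissue, with 651 ± 89.7 FPKM (SD, 12 libraries) in neural tissue, 693 ± 115 FPKM (SD, 6 libraries) in limb and 629 ± 63.2 FPKM (SD, 17 libraries) in facial tissue, and did not pass in either comparison. Cdk6 had the lowest mean of the members in neural and in facial tissue, while in limb that of Cdkn2c was lower. Cdk6 had 1.29 ± 0.701 FPKM (SD, 12 libraries) in neural and 1.95 ± 0.819 FPKM (SD, 17 libraries) in facial tissue. Cdk6 was lower in neural tissue (log2 fold change of −0.38 with SE 0.15 and adjusted p = 0.0326), but did not pass without vB replicate 4 (−0.31), without MXP replicate 2 (−0.32), without the 6 libraries numbered 1 (−0.38) or within replicates 1 to 3 (−0.27). Against limb, with 2.20 ± 0.823 FPKM (SD, 6 libraries), Cdk6 was lower by a log2 fold change of −0.50 (SE 0.20, adjusted p = 0.0404), and not past the threshold without vB replicate 4 (−0.42), without the 6 libraries numbered 1 (−0.46), with no filter on low values (−0.50), rescaled over transcripts of at least 200 bases (−0.59), or within replicates 1 to 3 (−0.47) or 4 to 6 (−0.53).

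In all, 5 G1 genes were higher and 4 lower in neural than in facial tissue, and 4 were higher and 4 lower than in limb. The shares of all tested genes were 26.8% higher and 26.8% lower than in facial tissue, and 24.3% and 20.6% than in limb. The median log2 fold change of the 11 was 0.18 against facial tissue and 0.03 against limb, against −0.02 and −0.01 over all tested genes.

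**Figure D3:**
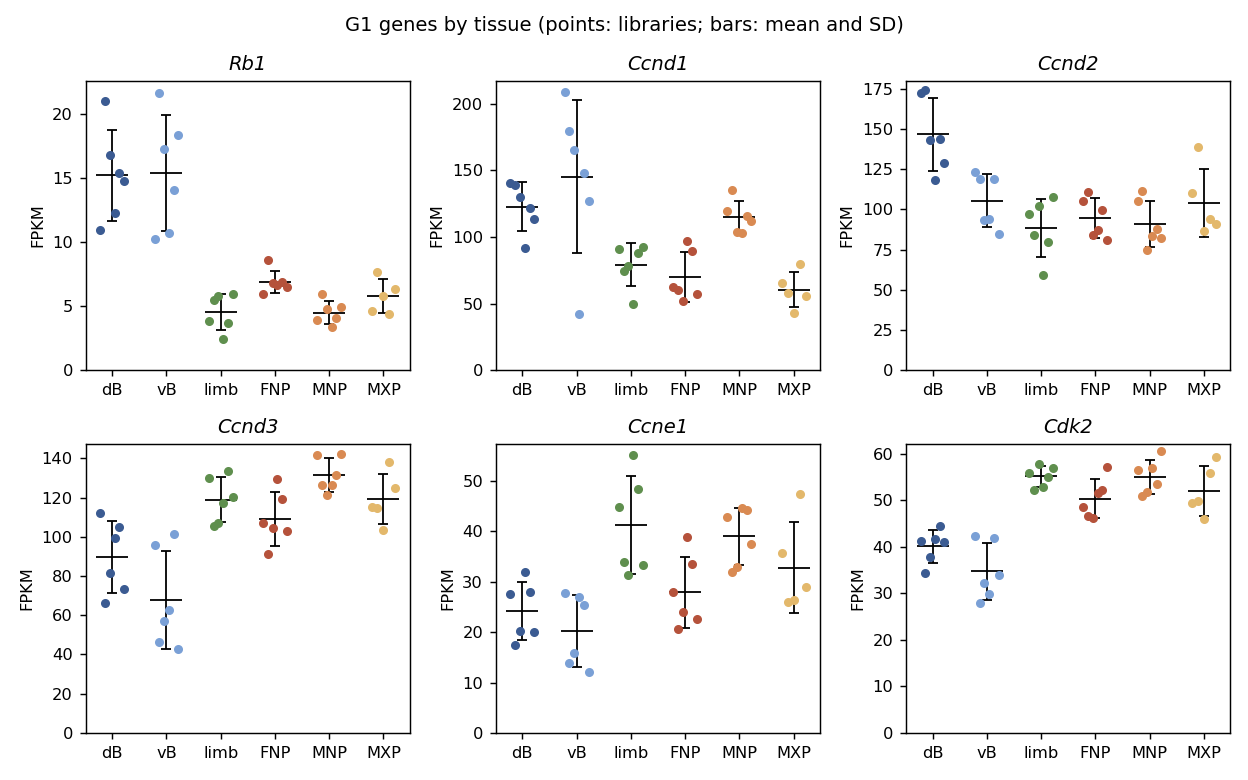
FPKM of 6 G1 genes in every library by tissue (points), with the tissue mean and SD (black). Rb1 is at 10.2 FPKM or more in every brain library and at 8.58 FPKM or less elsewhere, Cdk2 is lower in the brain, and Ccnd1 is high in dB, vB and MNP with vB replicate 4 at 42.3 FPKM.

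The genes of S phase differed little between the tissues. They include the subunits of the MCM helicase, which opens the origins, Pcna, the sliding clamp of the polymerases, and Rrm1, Rrm2 and Tyms, which make deoxynucleotides. Pcna was the most abundant, with 374 ± 109 FPKM (SD, 12 libraries) in neural tissue, 379 ± 83.1 FPKM (SD, 6 libraries) in limb and 304 ± 65.9 FPKM (SD, 17 libraries) in facial tissue, and did not pass against facial tissue (log2 fold change 0.28, 95% interval 0.02 to 0.55, adjusted p = 0.0646). Between neural and facial tissue none of the 13 was higher in limma and Mcm4 was lower (57.4 ± 13.8 FPKM, SD over 12 libraries, against 69.5 ± 7.97 FPKM, SD over 17 libraries; log2 fold change of −0.30 with SE 0.09 and adjusted p = 0.0064), while 4 had an unadjusted p under 0.05. Of all tested genes, 26.8% were higher and 26.8% lower. Within replicates 4 to 6 Mcm4 did not pass (−0.26). Fold changes of the 13 ran from −0.30 for Mcm4 to 0.32 for Rrm2, and their 95% intervals lay within −0.54 to 0.60.

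Against limb, 4 of the 13 were lower in neural tissue, where 20.6% of all tested genes were lower: Mcm4, Mcm5, Tyms and Cdc6, which loads the helicase. Mcm5 had 70.1 ± 12.3 FPKM (SD, 12 libraries) in neural tissue and 92 ± 11.1 FPKM (SD, 6 libraries) in limb (log2 fold change of −0.40 with SE 0.11 and adjusted p = 0.0026). Tyms had the largest fold change (−0.47, SE 0.17, adjusted p = 0.0204). Cdt1, which licenses origins, and Gmnn, which encodes its inhibitor geminin, did not pass in either comparison (for Gmnn 0.15, 95% interval −0.17 to 0.47, against facial tissue). The remaining members were the helicase subunit genes Mcm2, Mcm3, Mcm6 and Mcm7 and the reductase genes Rrm1 and Rrm2, whose log2 fold changes against limb lay between −0.26 (Mcm3) and −0.03 (Rrm2). Within replicates 4 to 6 none of the 4 passed, with log2 fold changes of −0.36 for Mcm4, −0.37 for Mcm5, −0.30 for Tyms and −0.35 for Cdc6.

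Mitosis genes differed as little. Ccna2 and Ccnb1, cyclins that act up to and into mitosis, had higher levels in neural than in facial tissue, both by 0.26 on the log2 scale (SE 0.07, adjusted p = 0.0033, and SE 0.10, adjusted p = 0.0276). Ccna2 had 122 ± 24.1 FPKM (SD, 12 libraries) in neural and 100.3 ± 9.46 FPKM (SD, 17 libraries) in facial tissue, and Ccnb1 had 129 ± 33.5 FPKM in neural and 106 ± 14.5 FPKM in facial tissue. Cenpe, a kinetochore motor, was lower in neural tissue, with 14.1 ± 1.76 FPKM (SD, 12 libraries), than in facial tissue, with 16.7 ± 1.72 FPKM (SD, 17 libraries; log2 fold change of −0.24 with SE 0.06 and adjusted p = 0.0019). Within replicates 4 to 6 neither Ccna2 (0.32) nor Ccnb1 (0.35) nor Cenpe (−0.12) passed. The other 17 did not pass, among them Mki67, the gene of the proliferation antigen Ki-67 (37.6 ± 7.12 FPKM, 12 libraries, against 41.4 ± 5.65 FPKM, 17 libraries, SD; log2 fold change −0.14, 95% interval −0.33 to 0.04), Top2a (−0.11, −0.24 to 0.01), Cdk1 (−0.04, −0.29 to 0.20) and Foxm1, which drives the transcription of G2 and mitosis genes (0.04, −0.18 to 0.26). The same held for Ccnb2, the kinase genes Plk1, Aurka and Aurkb, the spindle checkpoint genes Bub1, Bub1b and Mad2l1, the centromere genes Cenpa and Cenpf, Cdc20 and Ube2c, which act in the destruction of mitotic proteins, Birc5 and the transcription factor gene Mybl2. Ube2c was the most abundant mitosis gene, at 198 FPKM in neural and 188 FPKM in facial tissue. All 95% intervals of the 20 lay within −0.37 to 0.46.

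Against limb, none of the 20 mitosis genes was higher in neural tissue in limma and 4 were lower: the spindle checkpoint genes Bub1 and Bub1b, the kinase gene Aurka and Top2a, which encodes the topoisomerase that untangles chromosomes. The 4 lower genes are 20.0% of the 20, near the 20.6% of all tested genes that were lower. Bub1 had 33.3 ± 6.30 FPKM (SD, 12 libraries) in neural tissue and 46.5 ± 8.28 FPKM (SD, 6 libraries) in limb (log2 fold change of −0.47 with SE 0.12 and adjusted p = 0.0012). Aurka had 44.7 ± 8.70 FPKM (SD, 12 libraries) in neural tissue and 60.1 ± 8.99 FPKM (SD, 6 libraries) in limb (−0.43, SE 0.12, adjusted p = 0.0027). In these 4 genes the libraries of both tissues overlapped, and an unadjusted p under 0.05 was reached by 6 of the 20. Within replicates 4 to 6 none of the 4 passed (−0.30 for Bub1, −0.38 for Aurka, −0.25 for Bub1b and −0.06 for Top2a). Over all replicates Top2a had a log2 fold change of −0.21 (SE 0.08, adjusted p = 0.0374), and it did not pass after quantile normalization (−0.17), rescaled over transcripts of at least 200 bases (−0.16), with the run as a factor (−0.18), without the 6 libraries numbered 1 (−0.20) or without replicate 4 of MNP, vB and limb, which share a run (−0.18, chosen after seeing the data). Bub1b did not pass when rescaled (−0.23) or within replicates 1 to 3 (−0.29). Of the 33 genes of S phase and mitosis together, 2 were higher and 2 lower than in facial tissue, against 26.8% and 26.8% of all tested genes. None was higher and 8 were lower than in limb, against 24.3% and 20.6%. No member of either group was called at a fold of 2 in any comparison.

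Levels of S phase and mitosis genes also varied between libraries of the same tissue. In every tissue the S phase sums of replicates 1, 4 and 5 lay above those of replicates 2, 3 and 6. In FNP they were 1331, 1423 and 1338 FPKM against 882, 1019 and 973 FPKM. Mitosis sums were ordered likewise except in limb, where replicate 5 (1513 FPKM) lay below replicate 2 (1572 FPKM). The fit by tissue alone counts this shift as spread between libraries, and its cause was not tested. In vB replicate 4 the mitotic cyclin gene Ccnb1 had 216 FPKM, against 100 to 124 FPKM in the other vB libraries, and Birc5, the survivin gene, had 205 FPKM against 67.3 to 115 FPKM. In the same way dB replicate 4 had 177 FPKM of Ccnb1, against 103 to 126 FPKM in the other dB libraries, and limb replicate 4 had 174 FPKM, against 101.3 to 128 FPKM. In FNP and MNP the highest Ccnb1 value, 124 and 130.1 FPKM, was that of replicate 4 too. Without vB replicate 4, Ccnb1 no longer passed between neural and facial tissue (0.18), nor within replicates 1 to 3 (0.16), while Ccna2 passed in both (0.20 and 0.19). The same vB library had the lowest E2f1 level of all, 6.85 FPKM, against 19.4 to 27.1 FPKM in the other vB libraries. Its median of the postmitotic neuron markers, 3.47 on the log2(FPKM + 1) scale, was the lowest in vB, and so was its median of the neural progenitor markers, at 4.17 against 5.33 to 5.95 in the other vB libraries. By summed level, vB replicate 1 was lower in both lists (872 and 874 FPKM) than vB replicate 4 (940 and 918 FPKM). The erythroid genes of vB replicate 4 summed to 49110 FPKM, against 5220 to 22420 FPKM in the other vB libraries. Limb replicate 4 had the highest erythroid sum of its tissue, 28950 FPKM, whereas in dB replicate 4, with 35190 FPKM, came after replicate 1, with 38930 FPKM. The part of these cell types in the values was not tested.

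**Figure D4:**
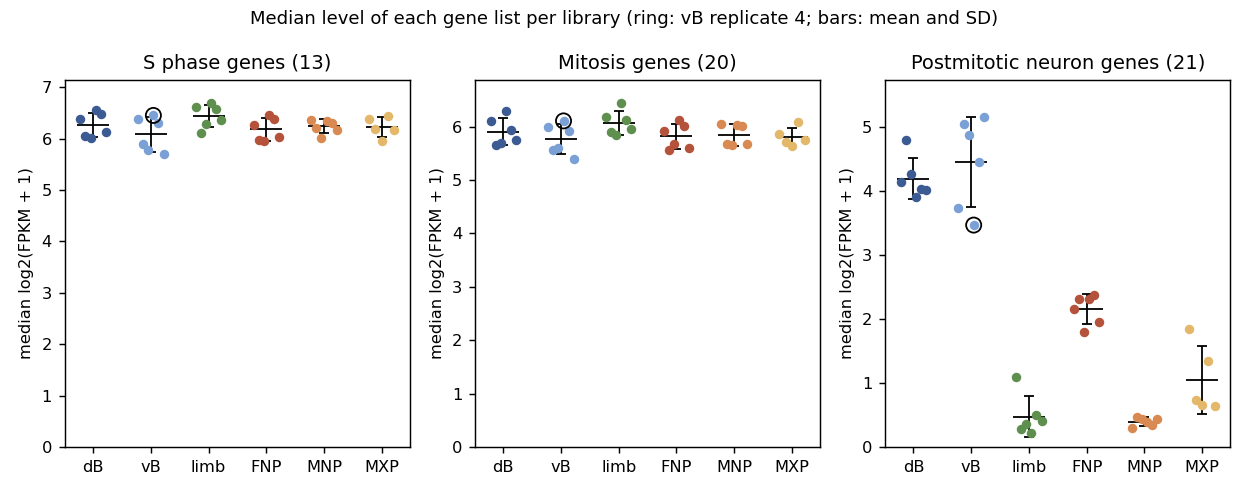
Median log2(FPKM + 1) of the 13 S phase genes, the 20 mitosis genes and the 21 postmitotic neuron markers in every library by tissue (points), with mean and SD (black) and a ring around vB replicate 4. S phase medians run from 5.69 to 6.69 and mitosis medians from 5.40 to 6.44 over all libraries, whereas the neuron medians run from 3.47 to 5.16 in the brain and from 0.21 to 2.38 elsewhere.

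For genes of S phase and mitosis the start windows are shown for 1 gene of each group that held the motifs of its group. Mcm3, a helicase subunit, is at chr1:20820263-20820562 and Ccnb2, a mitotic cyclin gene, at chr9:70421505-70421804, both on the minus strand. Capitals mark CCAAT boxes as above, an E2F type site (GCGGGAA, or TTCCCGC on the opposite strand) in Mcm3, and the cell cycle homology region (TTTGAA, or TTCAAA on the opposite strand) in Ccnb2.
Mcm3: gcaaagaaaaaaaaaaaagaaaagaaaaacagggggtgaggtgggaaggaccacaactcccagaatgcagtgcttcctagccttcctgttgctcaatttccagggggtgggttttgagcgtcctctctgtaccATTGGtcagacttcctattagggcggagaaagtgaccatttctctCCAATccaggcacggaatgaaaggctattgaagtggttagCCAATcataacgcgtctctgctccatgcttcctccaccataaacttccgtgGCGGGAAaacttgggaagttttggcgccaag
Ccnb2: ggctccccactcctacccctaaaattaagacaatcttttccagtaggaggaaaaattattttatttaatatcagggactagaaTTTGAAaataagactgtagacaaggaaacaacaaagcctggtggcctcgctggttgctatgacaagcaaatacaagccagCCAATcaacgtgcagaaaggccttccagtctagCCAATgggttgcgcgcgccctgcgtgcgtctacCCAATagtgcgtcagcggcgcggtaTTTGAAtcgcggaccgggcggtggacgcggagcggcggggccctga

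RefSeq windows were found for 41 of the 50 members, 45 windows in all. CCAAT occurred in 82.4% of 17 windows of mitosis genes, 75.0% of 12 windows of S phase genes, 62.5% of 8 windows of cycle exit genes and 25.0% of 8 windows of G1 genes, against 37.4% of all 32851 windows. TTTGAA occurred in 64.7% of the mitosis windows and in 8.3% of the S phase windows, and in none of the G1 and cycle exit windows, against 17.9% of all windows. GCGGGAA occurred in 6 of the 12 S phase windows, 12.5% of the G1 windows and 12.5% of the cycle exit windows, and in none of the mitosis windows, against 4.6% of all windows. The Ccnb2 window holds 3 CCAAT boxes and 2 TTTGAA motifs, and the Mcm3 window 3 CCAAT boxes and 1 GCGGGAA. Motifs were counted on both strands, none of the 3 contains another, and windows of the same gene can overlap. These are letter matches and no measure of binding.

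Few members passed between limb and facial tissue in the fit by tissue alone. With the sequencing run as a factor 6 were higher and 3 lower in limb, and with the replicate number as a factor 18 and 4. Gadd45g, at 4.65 ± 0.943 FPKM (SD, 6 libraries) in limb and 11.1 ± 4.88 FPKM (SD, 17 libraries) in facial tissue, was lower in limb by a log2 fold change of −0.99 (SE 0.12, adjusted p = 2.4e-07), and the highest limb library, at 5.96 FPKM, reached the lowest facial one, at 5.89 FPKM. Cdkn2c was lower in limb too (log2 fold change of −0.63 with SE 0.15 and adjusted p = 0.0038, and −0.72 but not past the threshold within replicates 4 to 6), as was Rbl1 (−0.21, SE 0.07, adjusted p = 0.0481). Of the 21 neuron markers 9 were lower and 2 higher in limb than in facial tissue, and of the 13 neural progenitor markers 3 were lower and 1 higher, with Sox2 and Fabp7 called. The progenitor markers summed to 60.8 to 113 FPKM in limb and to 74.7 to 294 FPKM in facial libraries, the neuron sums were given above, and the part of either in these differences was not tested. Cdkn1a was higher in limb, with 8.20 ± 1.42 FPKM (SD, 6 libraries), than in facial tissue, with 6.28 ± 1.69 FPKM (SD, 17 libraries; log2 fold change of 0.37 with SE 0.12 and adjusted p = 0.0446). So 1 member was higher and 3 were lower in limb, against 5.08% and 8.55% of all tested genes, and none was called at a fold of 2, against 2.62%. With FPKM rescaled over transcripts of at least 200 bases, 3 members were higher and 2 lower. Cdkn1a no longer passed without MXP replicate 3 or 5 (0.34 each), and Rbl1 without MXP replicate 2 or 6 (−0.19 and −0.20), and neither passed within replicates 1 to 3 or within replicates 4 to 6. Without vB replicate 4, 4 members were higher in limb, without MXP replicate 3 none and without MXP replicate 5 there were 2, and Gadd45g came past a fold of 2 without MXP replicate 3 (−1.01) or 5 (−1.0). No gene of S phase or mitosis passed in the fit by tissue alone, and 7 of the 33 had an unadjusted p under 0.05.

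Between dorsal and ventral brain 1 member passed in the fit by tissue alone. With the sequencing run as a factor 3 did, and with the replicate number as a factor 11. Ccnd2 had 147 ± 22.7 FPKM (SD, 6 libraries) in dB and 105.5 ± 16.6 FPKM (SD, 6 libraries) in vB (log2 fold change of 0.47 with SE 0.14 and adjusted p = 0.0418), with overlapping libraries. Without vB replicate 4 it had a log2 fold change of 0.44 and did not pass, nor did it without the 6 libraries numbered 1 (0.47), after quantile normalization (0.49), rescaled over transcripts of at least 200 bases (0.47), or within replicates 1 to 3 (0.54) or 4 to 6 (0.40). All other members missed the threshold, so 1 was higher and none lower in dB, against 3.04% and 1.46% of all tested genes, and none was called at a fold of 2 in limma, against 1.39%, while 6 of the 50 had an unadjusted p under 0.05. The members near the threshold were Cdkn1a (0.46, 95% interval 0.15 to 0.76, adjusted p = 0.0792) and Ccnd3 (0.45, 0.14 to 0.77, adjusted p = 0.0921). Btg2 had 38.2 ± 5.92 FPKM in dB and 38.9 ± 6.34 FPKM in vB, and Rb1 15.2 ± 3.58 FPKM in dB and 15.4 ± 4.50 FPKM in vB (SD, 6 libraries each). Mesenchyme markers went with this comparison: 5 of 12 were higher in dB and none was lower. Their part in the difference of Ccnd2 was not tested.

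Within the face, FNP differed from the other prominences in Btg2 and Gadd45g. Btg2 had 10.1 ± 1.54 FPKM (SD, 6 libraries) in FNP, 4.99 ± 0.513 FPKM (SD, 6 libraries) in MNP and 4.62 ± 0.721 FPKM (SD, 5 libraries) in MXP, and no FNP library overlapped with either. Its log2 fold change was 0.89 against MNP (SE 0.15, adjusted p = 4.4e-05) and 0.98 against MXP (SE 0.15, adjusted p = 2.6e-05). Gadd45g had 17.0 ± 2.54 FPKM (SD, 6 libraries) in FNP, 7.38 ± 1.43 FPKM (SD, 6 libraries) in MNP and 8.30 ± 1.04 FPKM (SD, 5 libraries) in MXP, again without overlap. Its log2 fold change was 1.11 against MNP (SE 0.15, adjusted p = 1.8e-06), past a fold of 2, and 0.95 against MXP (SE 0.16, adjusted p = 7.2e-05). Within replicates 4 to 6, where MXP has 2 libraries, both missed the threshold against MXP (1.10 for Btg2 and 1.07 for Gadd45g). Neuron markers went with these genes here as well: 11 of 21 were higher in FNP than in MNP and 8 than in MXP, none was lower, and their summed level was 159 to 211 FPKM in FNP, 53.0 to 73.0 FPKM in MNP and 102 to 153 FPKM in MXP. Of the 13 neural progenitor markers, 5 were higher in FNP than in MNP and 3 than in MXP, and none was lower, with Sox2, Sox3 and Pax6 called in both. Their summed level was 111 to 149 FPKM in 4 of the FNP libraries and 294 and 245 FPKM in FNP replicates 4 and 5, against 74.7 to 94.96 FPKM in MNP and 76.8 to 131 FPKM in MXP, and the means of Pax6, Sox1 and Sox3 in MNP and of Rfx4 in MXP were under 0.1 FPKM. The highest Btg2 values of FNP, 11.6 and 12.2 FPKM, were those of replicates 4 and 5 as well. The part of neurons and of neural progenitors in the differences was not tested.

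MNP differed from both other prominences in Ccnd1. This gene lies on chromosome 7 from 144929931 to 144939925 of mm10 and had 115 ± 12.2 FPKM (SD, 6 libraries) in MNP and 60.4 ± 13.3 FPKM (SD, 5 libraries) in MXP, with no overlap (log2 fold change of 0.94 with SE 0.25 and adjusted p = 0.036). In FNP it had 69.9 ± 18.8 FPKM (SD, 6 libraries), below every MNP library (FNP against MNP, log2 fold change of −0.74 with SE 0.24 and adjusted p = 0.0498). The first difference was no longer past the threshold without MXP replicate 2 (0.93), 3 (0.83) or 6 (0.92), and the second without MXP replicate 1, 2 or 6 (−0.74 each). Both also missed it after quantile normalization (0.91 and −0.73), rescaled over transcripts of at least 200 bases (0.94 and −0.73) and without the 6 libraries numbered 1 (0.96 and −0.71). With no filter on low values the second missed it too (−0.74). Within replicates 1 to 3 the fold changes were 1.11 and −1.02, and within replicates 4 to 6 they were 0.71 and −0.47 and did not pass.

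In FNP against MNP, 2 members were thus higher and 1 lower, against 5.55% and 2.25% of all tested genes, with 1 called, against 2.68%. After quantile normalization 3 were higher and none lower, with rescaled FPKM 2 and none, and without vB replicate 4 there were 4 higher and 1 lower. In FNP against MXP, 2 were higher and none lower, against 4.65% and 1.54%, with none called, against 2.28%. Btg2 came past a fold of 2 without MXP replicate 1 (1.04) or 5 (1.01), and Gadd45g without MXP replicate 6 (1.01). In MNP against MXP, 1 was higher and none lower, against 1.28% and 0.811%, with none called, against 1.03%. Ccnd1 came past a fold of 2 without MXP replicate 5 (1.04). No gene of S phase or mitosis passed in the fit by tissue alone in any of these comparisons of prominences, and none had an unadjusted p under 0.05.

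Further genes of the cycle were taken from lists of other G1 and E2F genes, other replication genes, other mitosis genes and other arrest and antiproliferative genes. Of 40 other replication genes, 2 were higher and 9 lower in neural tissue when set against the face, and none higher and 10 lower than in limb, with none called. The shares of all tested genes were 26.8% higher and 26.8% lower than in facial tissue, and 24.3% higher and 20.6% lower than in limb, so the numbers of lower replication genes lay near the background. Of 41 other mitosis genes, 9 were higher and 7 lower than in facial tissue, and 5 higher and 9 lower than in limb. The phosphatase gene Cdc25b, which activates Cdk1 at mitotic entry, was the called one, with 37.9 FPKM in neural and 18 FPKM in facial tissue (log2 fold change of 1.03 with SE 0.08 and adjusted p = 1.7e-13). Of 22 other G1 and E2F genes, 8 were higher and 5 lower than in facial tissue, and 5 were higher and 5 lower than in limb. Myc, which drives growth and entry into the cycle, was called against facial tissue, with 4.88 FPKM in neural and 12.7 FPKM in facial tissue (log2 fold change of −1.16 with SE 0.16 and adjusted p = 2.3e-07).

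Other arrest genes differed in both directions. Of 20 listed, 17 were tested, of which 3 were higher and 6 lower in neural than in facial tissue, and 2 higher and 6 lower than in limb. The shares of all tested genes were 26.8% higher and 26.8% lower than in facial tissue, and 24.3% and 20.6% than in limb. Gas1, a growth arrest gene that is also a coreceptor of Hedgehog, had 59.3 FPKM in neural and 101 FPKM in facial tissue (log2 fold change of −1.29 with SE 0.19 and adjusted p = 4.0e-07), and it was called higher in dB, with 98.6 FPKM, than in vB, with 20.0 FPKM (2.43, SE 0.28, adjusted p = 4.6e-07). Phlda3, a target of p53, had 5.00 FPKM in neural and 11.4 FPKM in facial tissue (−1.09, SE 0.12, adjusted p = 1.2e-09). Gas2 was called lower than in limb (9.50 FPKM in neural tissue and 26.3 FPKM in limb; −1.36, SE 0.13, adjusted p = 8.8e-11), as was Gas1 (−1.10, SE 0.25, adjusted p = 3.9e-04). Cdkn1c, which encodes a CIP/KIP inhibitor, was called lower in FNP, with 158 FPKM, than in MNP, with 451 FPKM (−1.46, SE 0.19, adjusted p = 9.1e-07), and higher in MNP than in MXP, with 207 FPKM (1.05, SE 0.20, adjusted p = 0.001). MNP was thus the prominence with the highest mean of both Ccnd1 and Cdkn1c.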

How the data were processed

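Total RNA was extracted with Trizol, and polyA RNA was sequenced with paired-end reads of 75 bases. The authors deposited 1 Cufflinks table per library, with FPKM values and a coverage signal for each of 59120 UCSC transcripts of mm10. The aligner behind these tables is not given in the sources used here. The submitters' processing notes name Bowtie2 and DESeq2 without versions.

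FPKM was summed per gene symbol over 59055 transcripts, and 65 transcripts with shifted columns were left out. Coverage served only to describe depth. Genes were kept where the mean of any tissue reached 1 FPKM, which left 13934. All 35 libraries entered 1 fit in limma 3.58.1 under R 4.3.3, using a variance trend, robust moderation and a separate mean per tissue. Neural and facial tissue are means of the tissue means in the fit, and means over libraries where FPKM is printed. Scripts were tested on simulated data. Pandas 2.3.3 and matplotlib 3.10.9 were used in Python 3.11.15. The labels do not say that libraries of a tissue came from separate litters, so p-values measure the spread between pools.

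All 50 members are described, and of the lists of other cell cycle genes every called gene, since 5 or fewer were called. Outside this rule are the 5 mitosis genes under the last heading, which were not called and were chosen after their values were seen. The members and lists were chosen with earlier results of these data known. The alternatives were a pseudocount of 0.1, no filter on low values, quantile normalization, rescaling over transcripts of at least 200 bases, replicate number or sequencing run as a factor, and leaving out libraries. The fit without the 3 libraries of the run numbered 164 was chosen after seeing the data.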

Additional observations from a re-analysis of the deposited data

Results flagged for a closer look

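In 16 of 300 combinations of a member and a tissue, the highest or lowest library stood farther from the others than Dixon's limit allows, where chance gives about 1 in 20. Of the 16, 6 were in vB replicate 4: Ccnb1 at 215.9 FPKM against 100 to 124 FPKM in the other vB libraries, Ccnb2 at 108.5 FPKM against 47.1 to 59.8 FPKM, Ccna2 at 184 FPKM against 99.0 to 116 FPKM, Pcna at 648.9 FPKM against 259 to 387 FPKM, Mad2l1 at 152.2 FPKM against 59.4 to 88.8 FPKM and Birc5 at 204.8 FPKM against 67.3 to 115 FPKM. Limb replicate 4 had 3, with Ccnb1 at 174.3 FPKM against 101.3 to 128 FPKM in the other limb libraries, Ccnb2 at 97.47 FPKM against 59.0 to 69.8 FPKM and Birc5 at 184.7 FPKM against 107 to 130.3 FPKM. In dB replicate 4, Ccnb1 was at 177.2 FPKM against 103 to 126 FPKM, and in MNP replicate 4, Btg2 was the lowest, at 3.997 FPKM against 4.95 to 5.40 FPKM.

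The other 5 were in libraries numbered 2. Cdk6 had 4.043 FPKM in MNP replicate 2 against 1.501 to 2.22 FPKM in the other MNP libraries. In FNP replicate 2, Cdkn2c had 3.961 FPKM against 2.76 to 3.17 FPKM and Rb1 8.582 FPKM against 5.93 to 6.86 FPKM. Cenpf had 21.09 FPKM in dB replicate 2 against 12.4 to 15.6 FPKM. Cdkn2d was low in MXP replicate 2, at 12.38 FPKM against 16.1 to 16.6 FPKM.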

How the results depend on the processing

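Of 51 differences of single members that passed, 22 passed under all 16 alternatives and 29 missed the threshold under at least 1. None changed sign in 816 values, of which 82 no longer passed.

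Within replicates 4 to 6 alone, with fewer libraries, 6 members were higher in neural tissue than in the face and 4 lower than in limb, and 10 of the 18 and 11 of the 22 passing genes passed again. There the counts were 0 higher and 1 lower in limb than in facial tissue, 0 higher in dB than in vB, 0 lower in FNP than in MNP, 0 higher in FNP and 0 higher in MNP than in MXP, and 7 in the test over 6 tissues. Past a fold of 2 were 1 in limb against facial tissue and 2 in FNP against MNP. Within replicates 1 to 3 alone, 0 were higher in dB than in vB, and past a fold of 2 were 5 in neural against facial tissue, 2 in FNP against MNP and 1 in MNP against MXP.

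Lower in neural than in facial tissue were 11 members after quantile normalization, 10 with rescaled FPKM and 11 with the run as a factor. Quantile normalization gave 0 lower in FNP than in MNP and 0 higher in MNP than in MXP. Rescaling gave 3 higher in limb than in facial tissue, 0 higher in dB than in vB, 0 lower in FNP than in MNP and 0 higher in MNP than in MXP, and past a fold of 2 were 1 in limb against facial tissue and 2 in FNP against MXP. With no low filter, 0 were higher in limb than in facial tissue and 0 lower in FNP than in MNP. A pseudocount of 0.1 put 1 past a fold of 2 in limb against facial tissue and 2 in FNP against MXP. With the run as a factor, 6 were higher in limb than in facial tissue, 3 higher in dB than in vB, 4 higher and 2 lower in FNP than in MNP, and 1 was past a fold of 2 in MNP against MXP.

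Without the 6 libraries numbered 1, 0 were higher in limb than in facial tissue, 0 higher in dB than in vB, 0 lower in FNP than in MNP and 0 higher in MNP than in MXP, and past a fold of 2 were 1 in limb against facial tissue and 1 in FNP against MXP. Leaving out vB replicate 4 or 1 MXP library at a time gave 0 to 4 higher in limb than in facial tissue, 0 to 1 higher in dB than in vB, 2 to 4 higher and 0 to 1 lower in FNP than in MNP, 0 to 1 higher in MNP than in MXP, and 0 to 1 past a fold of 2 in limb against facial tissue, in FNP against MXP and in MNP against MXP. The cause of these changes was not tested.

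With the replicate number as a block, 37 members passed over the 6 tissues, against 18 without it, 11 were lower in neural than in facial tissue, 18 higher in limb than in facial tissue, against 1 without it, 11 higher in dB than in vB, against 1, 4 higher and 3 lower in FNP than in MNP and 4 higher and 2 lower in FNP than in MXP, and 1 was past a fold of 2 in FNP against MXP and 1 in MNP against MXP. Deviations of same-numbered libraries correlated at 0.01 to 0.70, over 0.1 in 78 of 85 pairs with a median of 0.34, against 57 of 425 pairs of different number with a median of −0.07. Not every pair was over 0.1, so the numbers were not taken as pairing, a rule that cannot exclude it. The counts that passed in the fit by tissue alone depend on this choice. Of 35 libraries, 31 were closest to one of the same number in another tissue, a hint from the data and not from the design.

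The tables hold no counts, so the depth behind low genes such as Cdk6 is unknown.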

Other observations

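In the list of 41 other mitosis genes, 9 were higher and 7 lower in neural than in facial tissue, against 26.8% and 26.8% of all tested genes. The 5 described here act at the central spindle or in cytokinesis and were chosen after their values were seen, so their values are a description and no result about such genes as a group. Racgap1, a subunit of centralspindlin, had 66.6 FPKM in neural and 41.2 FPKM in facial tissue (log2 fold change of 0.69 with SE 0.05 and, in limma, adjusted p = 6.3e-14). Prc1, which bundles the microtubules of the midzone, had 68.4 FPKM in neural and 45.0 FPKM in facial tissue with no overlap of libraries (0.59, SE 0.05, adjusted p = 6.6e-12), and Ect2, which activates RhoA at the furrow, had 38.2 FPKM in neural and 25.9 FPKM in facial tissue (0.55, SE 0.07, adjusted p = 2.3e-08). Kif20a, a midzone motor, was lower in neural tissue, with 29.1 FPKM, than in facial tissue, with 41.4 FPKM (−0.50, SE 0.07, adjusted p = 2.9e-07), as was Anln, the anillin gene, with 14.2 FPKM in neural and 18.7 FPKM in facial tissue (−0.39, SE 0.05, adjusted p = 2.5e-07). Against limb, Racgap1 (0.70), Prc1 (0.63) and Ect2 (0.32) were higher and Kif20a (−0.64) and Anln (−0.49) lower in neural tissue too, a comparison that shares the neural libraries.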
